A study of Brassica napus with 33 samples.

Results

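The genes described here are the 100 that varied least across all 33 root RNA-seq libraries of a nutrient deprivation study in oilseed rape (Brassica napus cv. Trezzor). Read pairs counted on the coding strand were divided by the total gene count of the library, which gives counts per 1000000 gene counts (CPM). Genes with a CPM of 20 or more in every library were kept, which left 6456 of 101040 annotated genes, and these were ranked by the standard deviation (SD) of log2 CPM over the 33 libraries. Genes in the list of ion transporters or the table of sulphur-related genes of the study were passed over, and the 100 of lowest SD were taken. The low SD is therefore what chose these genes and is given below as a description, with no test.

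Wild-type plants were grown in hydroponics on complete nutrient solution for 24 days and then moved to solution lacking a single element. Deprivation lasted 10 days for the macronutrients (N, P, K, Ca, Mg and S) and 22 days for Cl, Co and Mn, and each deprivation is compared with control roots kept on complete solution for the same time. Each of the 11 conditions had 3 biological replicates, each a pool of plants, so that the 6 comparisons at 10 days share the same 3 control libraries, and the 3 comparisons at 22 days share theirs. The libraries held between 10115284 and 22841765 counts in genes. BnaA01g28200D, a photosystem I PsaH gene that marks green tissue, had a median of 1.69 CPM (0.287 to 16.6 CPM over the 33 libraries), and the 5 root transporter genes examined differed widely. Of the SULTR1.2 sulphate transporter genes, BnaC06g38480D had a median of 143 CPM (3.30 to 372 CPM) and BnaA07g33860D of 41.7 CPM (0.0915 to 128 CPM). The SULTR1.1 genes BnaC02g14670D and BnaA02g10510D (medians 4.27 and 2.46 CPM) and the phosphate permease gene BnaA04g22280D (2.51 CPM) lay near the PsaH gene in median, and reached 147, 213 and 43.8 CPM in their highest libraries. These are whole roots, where fewer cells of a type and less RNA per cell cannot be told apart.

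Genes whose transcript level hardly moves between conditions can be used as reference genes to scale the others in quantitative PCR. Many carry out tasks that every cell needs, such as protein turnover, RNA handling or vesicle traffic. In sequencing, stability is always relative to how the libraries are scaled: when a deprivation makes a few abundant transcripts more abundant, the share left for all other genes shrinks, and a gene of constant level per cell then appears lower. Brassica napus carries an A and a C subgenome, inherited from the ancestors of turnip and cabbage, so most genes have a closely similar copy in the other subgenome.

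None of the 100 genes is paired with a gene name or function in the annotation used here, which names 165 of the 6456 ranked genes, so the genes are given by their identifiers. The letter after Bna gives the subgenome and the number the chromosome, and nn means that the gene has not been placed on a chromosome.

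The SD of log2 CPM of the 100 genes ran from 0.0844 to 0.137 with a median of 0.127, and the median over the 6456 ranked genes was 0.314. The highest library exceeded the lowest by 1.26 to 1.64 times (median 1.44), and by a median of 2.45 times over all ranked genes. For 82 of the 100 genes the highest library was less than 1.5 times the lowest, which held for 147 of the 6456 genes (2.28%). The SD taken within conditions had a median of 0.105 for the 100 genes, against 0.201 for all ranked genes. Differences between the means of the 11 conditions made up a median of 51.2% of a stable gene's variance (9.27% to 84.4%), against 68.7% over all ranked genes. Here and below this share is uncorrected. With 3 libraries a condition, spread between replicates alone also moves the condition means, so part of each share is not an effect of the conditions.

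**Figure D1:**
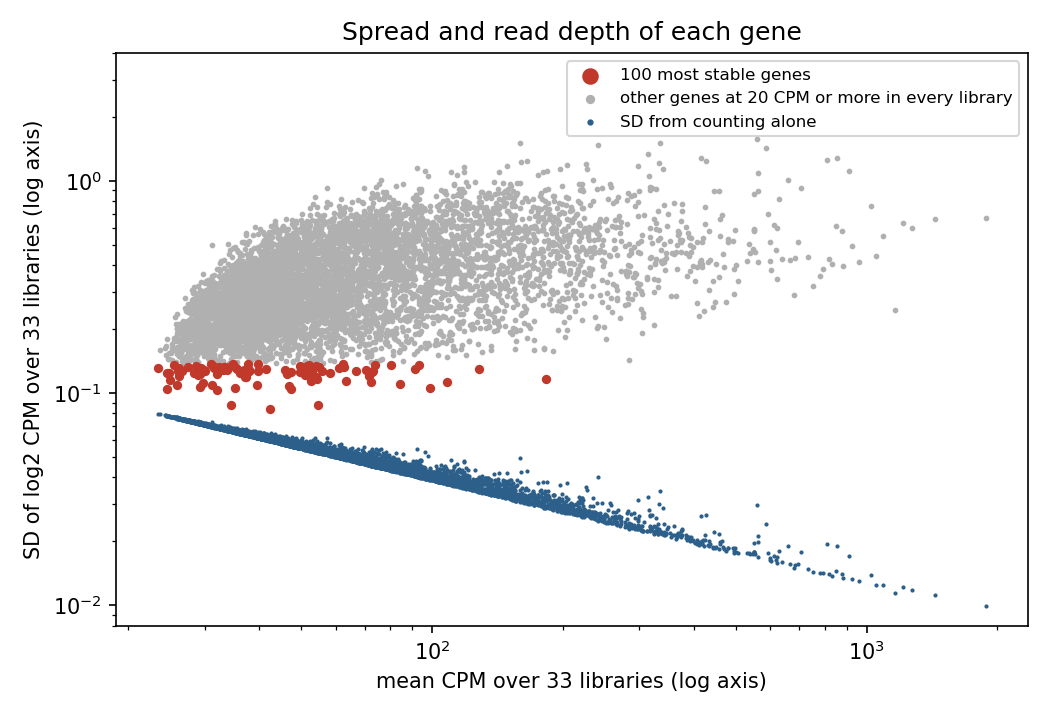
Each point is a gene, with its mean CPM over 33 libraries on the horizontal axis and its SD of log2 CPM on the vertical axis, both logarithmic. Red points are the 100 most stable genes (SD 0.0844 to 0.137), grey points the other ranked genes, and blue points the SD that counting alone gives each ranked gene. The red points lie above the blue band and most of them stand at the left, where fewer reads were counted. The minimum of 20 CPM in every library leaves out genes of low mean and wide spread, so this is at least partly set by the rule.

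BnaA07g16770D had the lowest SD (0.0844), with a mean of 42.4 ± 2.498 CPM (SD, n = 33). At 10 days it had 44.1, 43.8 and 46.3 CPM in N-deprived roots, 40.0, 43.4 and 40.2 CPM in Mg-deprived roots, 40.2, 43.6 and 40.8 CPM in P-deprived roots, 47.7, 46.5 and 42.6 CPM in S-deprived roots, 41.5, 42.6 and 37.9 CPM in K-deprived roots, 40.0, 44.0 and 43.2 CPM in Ca-deprived roots and 40.5, 42.4 and 39.2 CPM in control roots. At 22 days BnaA07g16770D had 41.4, 44.0 and 38.5 CPM in Cl-deprived roots, 40.1, 39.8 and 43.2 CPM in Co-deprived roots, 41.0, 46.8 and 43.9 CPM in Mn-deprived roots and 41.2, 46.0 and 41.1 CPM in control roots. All N- and S-deprived libraries stood above the 3 control libraries of 10 days, although some Ca-, P- and Mg-deprived libraries were higher than replicate 3 of S deprivation. Each of the other deprivations overlapped with its control.

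BnaUnng00110D came next, with an SD of 0.0875 and a mean of 54.8 ± 3.34 CPM (n = 33). It ran from 49.0 CPM in control replicate 1 of 22 days, over a median of 54.1 CPM, to 61.7 CPM in replicate 2 of N deprivation. BnaA10g28290D (SD 0.0880) ran from 31.1 CPM in replicate 2 of P deprivation, over a median of 34.4 CPM, to 40.1 CPM in replicate 1 of Mg deprivation. In that gene the 3 Mg-deprived libraries (40.1, 35.9 and 36.7 CPM) all stood above the 3 control libraries of 10 days (34.6, 32.1 and 35.7 CPM).

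The next 7 genes by SD lay close together, between 0.103 and 0.108. BnaC04g27170D ranged from 26.6 to 39.3 CPM (median 31.7 CPM). BnaC03g73830D ranged from 20.97 to 30.6 CPM (median 24.7 CPM). In BnaAnng03880D the range was 40.2 to 53.5 CPM (median 47.9 CPM). The lowest library of BnaC04g27170D was replicate 3 of Cl deprivation, that of BnaC03g73830D replicate 1 of K deprivation and that of BnaAnng03880D replicate 1 of Ca deprivation. In BnaAnng02090D the range was 88.3 to 119.5 CPM (median 97.9 CPM), in BnaC08g20270D 29.97 to 39.6 CPM (median 34.7 CPM), in BnaC04g55510D 25.8 to 33.6 CPM (median 29.1 CPM) and in BnaC08g20540D 39.7 to 55.6 CPM (median 47.0 CPM). Replicate 3 of Cl deprivation was the lowest library for 3 of these last 4 genes, the exception being BnaC08g20540D, whose lowest library was replicate 3 of P deprivation.

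At the threshold the ranking was nearly continuous. The last 3 genes taken were BnaA06g40260D, BnaA10g30570D and BnaA07g25320D, with SDs of 0.1365, 0.1370 and 0.1374. The first 3 left out were BnaA06g17200D, BnaC04g22100D and BnaC08g03210D, with SDs of 0.13744, 0.1378 and 0.1381. Nothing in these values separates the genes on either side.

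The SD that counting alone gives (Poisson error on the log2 scale at the counts observed) had a median of 0.0629 for the 100 genes, and this error covers counting only. It made up a median of 24.8% of a stable gene's variance (6.08% to 56.0%), against 2.77% over all ranked genes. After subtraction of the counting variance the SD of the 100 genes ran from 0.0584 to 0.130. BnaA10g28290D had the lowest of these remaining SDs, and BnaA07g16770D followed with 0.0601. In BnaC03g73830D counting accounted for 55.4% of the variance.

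Stable genes had fewer reads than other ranked genes. Their mean CPM, which is not corrected for gene length and so measures reads and not transcripts, had a median of 37.8, against 54.7 over all ranked genes. When the ranked genes were divided by mean CPM into 4 bins of 1614, 53 of the 100 were in the lowest bin, 24 in the next, 17 in the one above and 6 in the highest. The median SD of all genes in those bins was 0.231, 0.297, 0.373 and 0.461 in the same order. Both patterns are at least partly set by the rule, since a gene of low mean passes the minimum of 20 CPM only if it varies little. How far the minimum accounts for them was not tested. The highest mean CPM among the 100 belonged to BnaC06g22030D (183 ± 14.7 CPM, n = 33), BnaA09g43480D (128 ± 11.8 CPM) and BnaC04g22610D (108 ± 8.56 CPM). The lowest belonged to BnaA08g16630D (23.4 ± 2.20 CPM), BnaC03g73830D (24.5 ± 1.81 CPM) and BnaCnng09260D (24.5 ± 2.13 CPM). BnaC06g22030D, the deepest of them, still ran from 155.6 CPM in replicate 2 of P deprivation, over a median of 181 CPM, to 211 CPM in replicate 1 of Cl deprivation, a 1.36-fold range, and counting made up 6.08% of its variance.

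By identifier, 58 of the 100 genes lie in the A subgenome, 41 in the C subgenome and 1 in neither, whereas the ranked genes were 48.6% A and 51.2% C. Chromosome A6 held 12 of the genes, C9 held 9, A9 held 8 and A7 held 7, and 8 were unplaced. Of the ranked genes 5.14% lay on A6, 5.75% on C9, 6.64% on A9 and 4.24% on A7, and 9.15% were unplaced. None of the 182 ranked genes of C1 or the 221 of C2 (2.82% and 3.42% of the ranked genes) was among the 100. The genes were scattered along the chromosomes: no pair had consecutive identifiers, and the closest pair was BnaC06g17600D and BnaC06g17640D, 4 identifiers apart. These neighbours differed in how they stood against the control. BnaC06g17600D had 79.4, 80.7 and 77.8 CPM in N-deprived roots and 74.4, 71.6 and 69.6 CPM in Ca-deprived roots, against 77.2, 60.7 and 70.2 CPM in control roots. BnaC06g17640D had 37.4, 34.3 and 39.2 CPM in N-deprived roots and 35.6, 35.9 and 33.8 CPM in Ca-deprived roots, against 30.3, 26.9 and 30.4 CPM in control roots. Both deprivations stood wholly above the control in BnaC06g17640D. In BnaC06g17600D the N-deprived libraries also stood above the 3 controls, and the Ca-deprived libraries overlapped with them.

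Counts on the opposite strand were not used in the ranking. They amounted to a median of 0.0926% of the counts of a stable gene (0.00846% to 1.76%), and to a median of 0.0832% over all ranked genes, while the share over a whole library was 0.419% to 0.782%. For 6 of the 100 genes the share was above that of every library, as it was for 225 of the 6456 ranked genes (3.49%). The highest shares were those of BnaA10g28290D (1.76%), BnaA09g56160D (1.32%) and BnaCnng63360D (1.08%).

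No gene of the ion transporter list or the sulphur table came near the threshold. Of the 302 transporter genes, 38 had 20 CPM or more in every library, with a median SD of 0.504, and the steadiest of them, BnaC04g29970D, was at rank 374 with an SD of 0.165. Of the 60 sulphur genes, 12 were ranked, with a median SD of 0.585, and the steadiest was BnaCnng67980D at rank 2665 (SD 0.281). Both lists were drawn up by the study from changes in these same samples, so their larger spread is no independent result. Passing over the listed genes changed none of the 100.

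The stable genes did not vary independently of each other. For each gene and library the deviation was taken as log2 CPM minus the mean of the gene over the 33 libraries, and the median over the 100 genes was −0.12 in replicate 3 and −0.11 in replicate 2 of Cl deprivation, but 0.044 in replicate 1. In replicate 3 of Cl deprivation 10 of the 100 genes were above their own mean, and 18 had their lowest value there. At the other end, the median was 0.12 in replicate 1 of S deprivation, where 76 genes were above their own mean. The first principal component of the 100 genes held 24.6% of their variance and had replicate 1 of S deprivation at one end and replicates 2 and 3 of Cl deprivation at the other.

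By condition, 77 of the 100 genes had a mean above their overall mean in N-deprived roots and 76 in S-deprived roots, but 20 in Cl-deprived and 30 in P-deprived roots. These shifts ran alongside those of the other genes. The median deviation of the 100 genes had the same sign as that of all 6456 ranked genes in 29 of 33 libraries, and the same sign as the log2 TMM factor in 27. The TMM factor (trimmed mean of M-values, a scaling factor from the trimmed mean of gene-wise log ratios between libraries) ran from 0.832 in replicate 3 of Cl deprivation to 1.13 in replicate 3 of N deprivation. After division by this factor the median deviation still ran from −0.14 in replicate 1 of P deprivation to 0.14 in replicate 3 of Cl deprivation, so the library that had been lowest became the highest. In CPM a shift of the stable genes and a shift of the total they are divided by cannot be told apart.

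**Figure D2:**
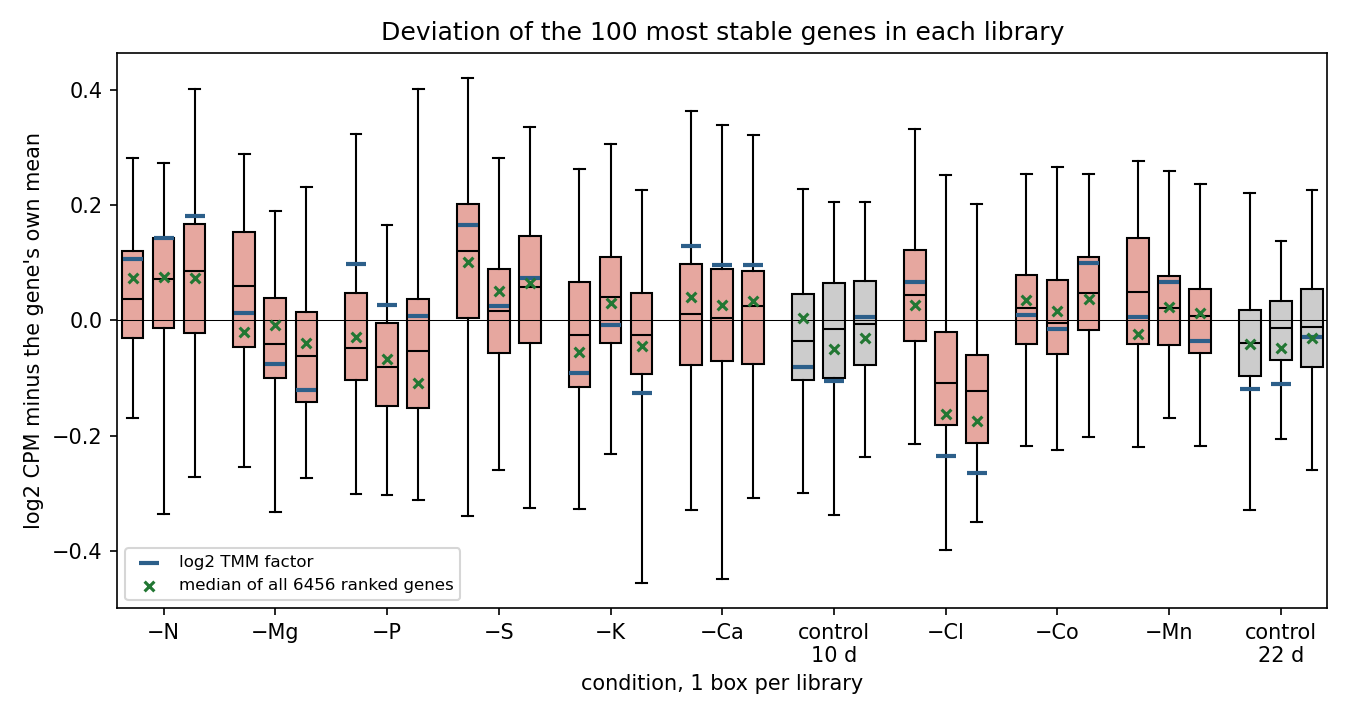
Boxes show, for each library, the deviation of the 100 most stable genes from their own mean log2 CPM (line: median; box: interquartile range; whiskers: lowest and highest gene), with deprivations in red, controls in grey and the groups of 10 days left of those of 22 days. Blue bars are log2 TMM factors and green crosses the median deviation of all 6456 ranked genes. Replicates 2 and 3 of Cl deprivation stand lowest (medians −0.11 and −0.12) and replicate 1 of S deprivation highest (0.12).

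Each deprivation was then compared with its control by edgeR's quasi-likelihood test with TMM scaling, and p-values were adjusted by Benjamini-Hochberg over all genes tested (56667 at 10 days, 54251 at 22 days and 57501 between the controls of both times). All 100 genes entered the test. Since the ranking used the same libraries, the counts of calls (adjusted p of at most 0.05) are a description, and nothing is read from their distance to the background. In the 9 deprivations 25 calls fell on 18 of the 100 genes, all of them lower than the control, and 82 genes had no call. Of the 6456 ranked genes, 64.0% had at least 1 call. A single call was made for 14 genes, 2 calls for BnaC09g09950D, and 3 calls each for BnaA06g09690D, BnaA01g37130D and BnaA05g30520D.

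Whether any of the 100 genes is called higher depends on the scaling. Every gene called with TMM kept a negative log2 fold change in that comparison in each of the 13 alternative fits, library size alone included. With library size alone, as in the ranking, the median log2 fold change of all genes tested was 0.20 under N deprivation, 0.14 under Ca deprivation and 0.13 under S deprivation, against 0.0074, −0.014 and −0.0067 with TMM, and it moved by about 0.1 under P and Co deprivation. Relative to the median of all genes, the median of the 100 lay at −0.12 with TMM and −0.11 with library size alone under N deprivation, and the widest gap between the scalings in this relative value was under Cl deprivation, with −0.010 and −0.021. With library size alone 3 of the 100 genes were called under N deprivation, 2 under P, none under S and 2 under Ca deprivation, beside 25.8%, 28.0%, 12.1% and 28.2% of all genes tested. These were BnaA05g26750D (−0.32) lower and BnaC06g17640D (0.34) and BnaA07g11300D (0.30) higher under N deprivation, BnaA06g09690D (−0.32) and BnaA01g37130D (−0.32) lower under P deprivation, and BnaA05g30520D (−0.38) lower and BnaC08g38130D (0.34) higher under Ca deprivation, all as log2 fold changes.

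Under N deprivation 6 of the 100 genes were called, all lower, beside 20.1% of all genes tested and 25.2% of the ranked genes (11.1% and 17.7% called lower). Their log2 fold changes with TMM had a median of −0.11, close to the −0.12 of all ranked genes, and became 0.086 with library size alone. BnaA05g26750D had 46.6, 43.5 and 42.8 CPM in N-deprived roots, against 53.2, 52.6 and 59.6 CPM in control roots. The groups did not overlap, and the log2 fold change was −0.51 (SE 0.10, edgeR adjusted p = 0.00260). This gene was called lower under N deprivation in each of the 13 alternative fits, with adjusted p between 5.54e-07 and 0.0436. The other 5 calls were BnaA06g09690D, BnaC07g42770D, BnaA05g30520D, BnaA08g08340D and BnaA01g37130D, with log2 fold changes between −0.41 and −0.31, and these were called in 7, 6, 9, 3 and 5 of the 13 alternatives in that order. In CPM BnaA08g08340D and BnaA01g37130D overlapped with the control. In a fit of the N-deprived and control libraries alone 1 gene was called, and the count also fell to 1 without replicate 2 of the 10-day control, to 3 without its replicate 3, to 3 without replicate 2 of N deprivation and to 2 without its replicate 3.

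P deprivation gave the most calls, 10 of the 100 and all lower, beside 29.3% of all genes tested and 44.8% of the ranked genes (14.3% and 27.1% called lower). The median log2 fold change with TMM was −0.14, against −0.20 for all ranked genes, and −0.031 with library size alone. BnaA06g09690D had 66.6, 65.7 and 60.8 CPM in P-deprived roots, against 76.4, 83.0 and 82.4 CPM in control roots, without overlap (log2 fold change −0.43, SE 0.12, edgeR adjusted p = 0.0118). BnaA01g37130D had 47.3, 45.5 and 46.1 CPM in P-deprived roots, against 55.2, 58.3 and 59.4 CPM in control roots, again without overlap (−0.42, SE 0.10, edgeR adjusted p = 0.00473). These calls were made in 10 and 12 of the 13 alternatives. The other 8 genes called had log2 fold changes between −0.40 and −0.29 and were called in 2 to 11 of the 13. Without replicate 3 of P deprivation 2 genes were called, without its replicate 1 or 2 there were 5, and without replicate 2 of the control there were 4. In a fit of the P-deprived and control libraries alone none was called by edgeR, with 5 genes at an unadjusted p of at most 0.05.

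Under Ca deprivation 8 of the 100 genes were called, all lower, beside 26.5% of all genes tested and 33.6% of the ranked genes (13.9% and 21.7% called lower). The median log2 fold change was −0.13 with TMM, against −0.12 for all ranked genes, and 0.020 with library size alone. BnaA05g30520D had 31.5, 31.9 and 36.4 CPM in Ca-deprived roots, against 45.4, 44.9 and 39.8 CPM in control roots, without overlap. Its log2 fold change of −0.54 (SE 0.11, edgeR adjusted p = 0.00135) was the farthest from 0 of any of the 100 genes in the 10 comparisons, and it was called in each of the 13 alternative fits (adjusted p 1.13e-05 to 0.0345). This gene stood at rank 96 of the 100, with 81.5% of its variance between conditions and a within-condition SD of 0.0708. BnaA09g43480D was next, with 114, 111 and 116 CPM in Ca-deprived roots, against 149, 124 and 125 CPM in control roots (−0.38, SE 0.11, edgeR adjusted p = 0.0149). It was called in 7 of the 13 alternatives, with an adjusted p of 0.154 by edgeR with library size alone, and the other 6 genes called under Ca deprivation in 3 to 8. In a fit of the Ca-deprived and control libraries alone 1 gene was called. Leaving out a replicate of Ca deprivation left 3, 2 or 3 calls, leaving out replicate 1 of the control left 4, and leaving out its replicate 2 left 2.

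S deprivation gave 1 call, BnaA06g09690D, which was lower, beside 8.84% of all genes tested and 14.6% of the ranked genes (4.63% and 9.03% called lower). It had 58.4, 75.1 and 65.2 CPM in S-deprived roots, against 76.4, 83.0 and 82.4 CPM in control roots. The groups did not overlap, but replicate 2 of S deprivation lay just below the lowest control (log2 fold change −0.42, SE 0.12, edgeR adjusted p = 0.0398). The call was lost without replicate 1 or 3 of S deprivation and without replicate 2 or 3 of the control, when no gene of the 100 was called. The median over the 100 genes was −0.063 with TMM, as over all ranked genes, and 0.078 with library size alone.

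Under Mg and K deprivation edgeR called none of the 100 genes. In the Mg comparison 3.58% of all genes tested and 3.73% of the ranked genes were called. Not 1 of the 100 had an unadjusted edgeR p of 0.05 or less, where 10831 of 56667 genes did. DESeq2 called none of the 100, with 1 gene at that level, beside 10481 of 56667. The fold change farthest from 0 was that of BnaA05g30520D, at 35.6, 38.8 and 36.9 CPM in Mg-deprived roots, against 45.4, 44.9 and 39.8 CPM in control roots (log2 fold change −0.22, SE 0.11). In the K comparison 1.26% of all genes tested and 1.25% of the ranked genes were called. In edgeR 2 of the 100, BnaC09g20230D and BnaA07g02580D, had an unadjusted p of at most 0.05, beside 7407 of 56667 genes. By DESeq2 6 of the 100 did, none of them called, beside 7057 of 56667. BnaC09g20230D had 23.8, 26.4 and 23.5 CPM in K-deprived roots, against 30.4, 30.2 and 28.4 CPM in control roots, without overlap (−0.26, SE 0.099, edgeR adjusted p = 0.254).

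In the 3 comparisons at 22 days edgeR's quasi-likelihood test of all libraries called no gene at all, so the background was 0% and the absence of calls says nothing about the 100 genes. Its likelihood ratio test called 33, 77 and 182 of 54251 genes under Cl, Co and Mn deprivation. The quasi-likelihood test of the Co-deprived and control libraries alone called 39. Both called none of the 100, and at so small a share of all genes this says nothing about them either. In the main fit none of the 100 had an unadjusted p of at most 0.05 under Cl, Co or Mn deprivation, where 2225, 5588 and 6326 of 54251 genes did. DESeq2 called 34, 52 and 182 of all genes and none of the 100 (0, 1 and 1 at that unadjusted p), again too small a share to read from. The fold change farthest from 0 under Cl deprivation was that of BnaA07g01570D, at 39.8, 34.0 and 32.0 CPM in Cl-deprived roots, against 26.9, 32.7 and 33.0 CPM in control roots (log2 fold change 0.22, SE 0.12), and the groups overlapped. Under Co deprivation it was that of BnaA09g09660D, at 30.2, 28.2 and 34.1 CPM in Co-deprived roots, against 31.6, 35.4 and 35.3 CPM in control roots (−0.24, SE 0.12), which also overlapped. Under Mn deprivation BnaC06g31270D had 67.7, 70.0 and 74.1 CPM in Mn-deprived roots, against 84.3, 79.2 and 78.2 CPM in control roots (−0.26, SE 0.15), without overlap.

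The control roots of 22 days were also compared with those of 10 days. These groups differ in plant age and in time of harvest, which cannot be told apart. Their libraries also differed: unmapped read pairs were 11.5% to 16.0% at 10 days and 6.90% to 8.14% at 22 days. None of the 100 genes was called by edgeR or DESeq2, beside 0.647% of all genes tested in edgeR. By either tool 2 of the 100 had an unadjusted p of at most 0.05, where 6751 of 57501 genes did in edgeR. In edgeR the 2 genes were BnaC06g17640D and BnaA06g34030D. BnaC06g17640D had 36.6, 33.3 and 32.4 CPM in controls of 22 days, against 30.3, 26.9 and 30.4 CPM in controls of 10 days, without overlap (log2 fold change 0.25, SE 0.096, edgeR adjusted p = 0.271).

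**Figure D3:**
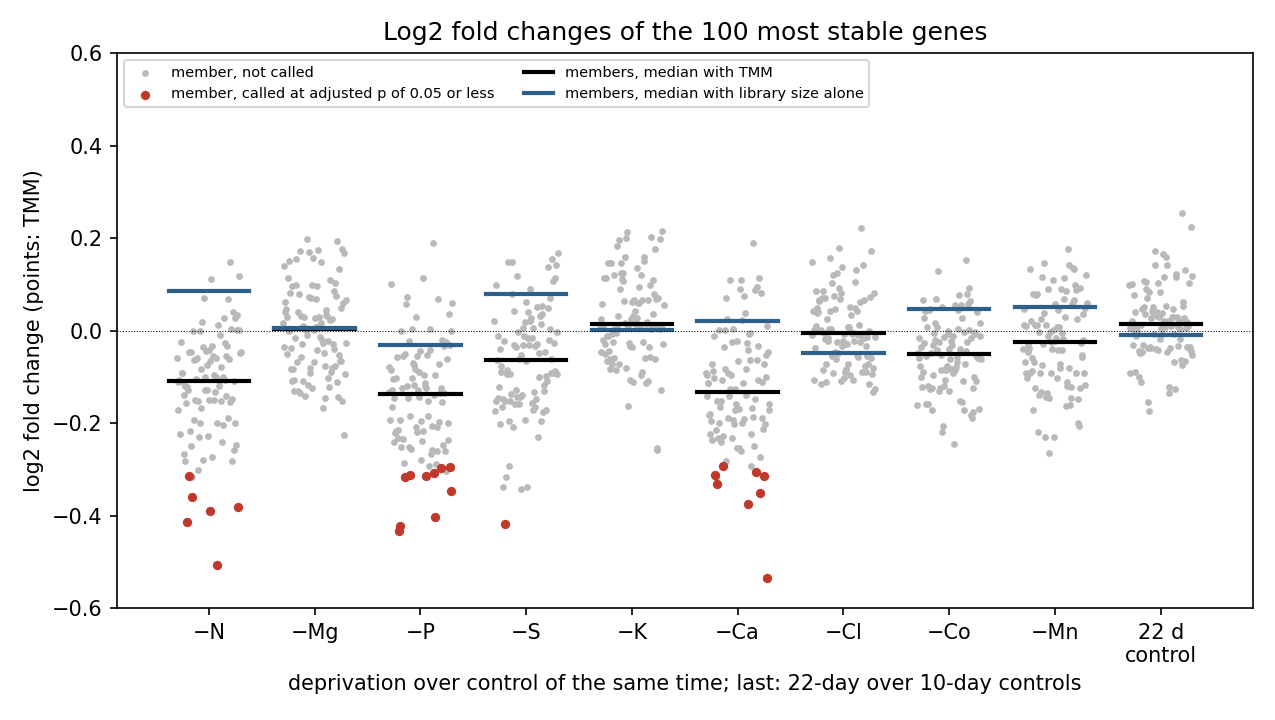
Each point is the log2 fold change of 1 of the 100 most stable genes with TMM scaling, for each deprivation over its control and, at the right, for 22-day over 10-day controls. Red points are the 25 calls, all below 0. Black bars are the median of the 100 genes with TMM and blue bars the median with library size alone. The bars stand on opposite sides of 0 for N (−0.11 and 0.086), S (−0.063 and 0.078), Ca (−0.13 and 0.020), Co (−0.051 and 0.046), Mn (−0.024 and 0.051) and 22-day over 10-day controls (0.014 and −0.010).

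**Figure D4:**
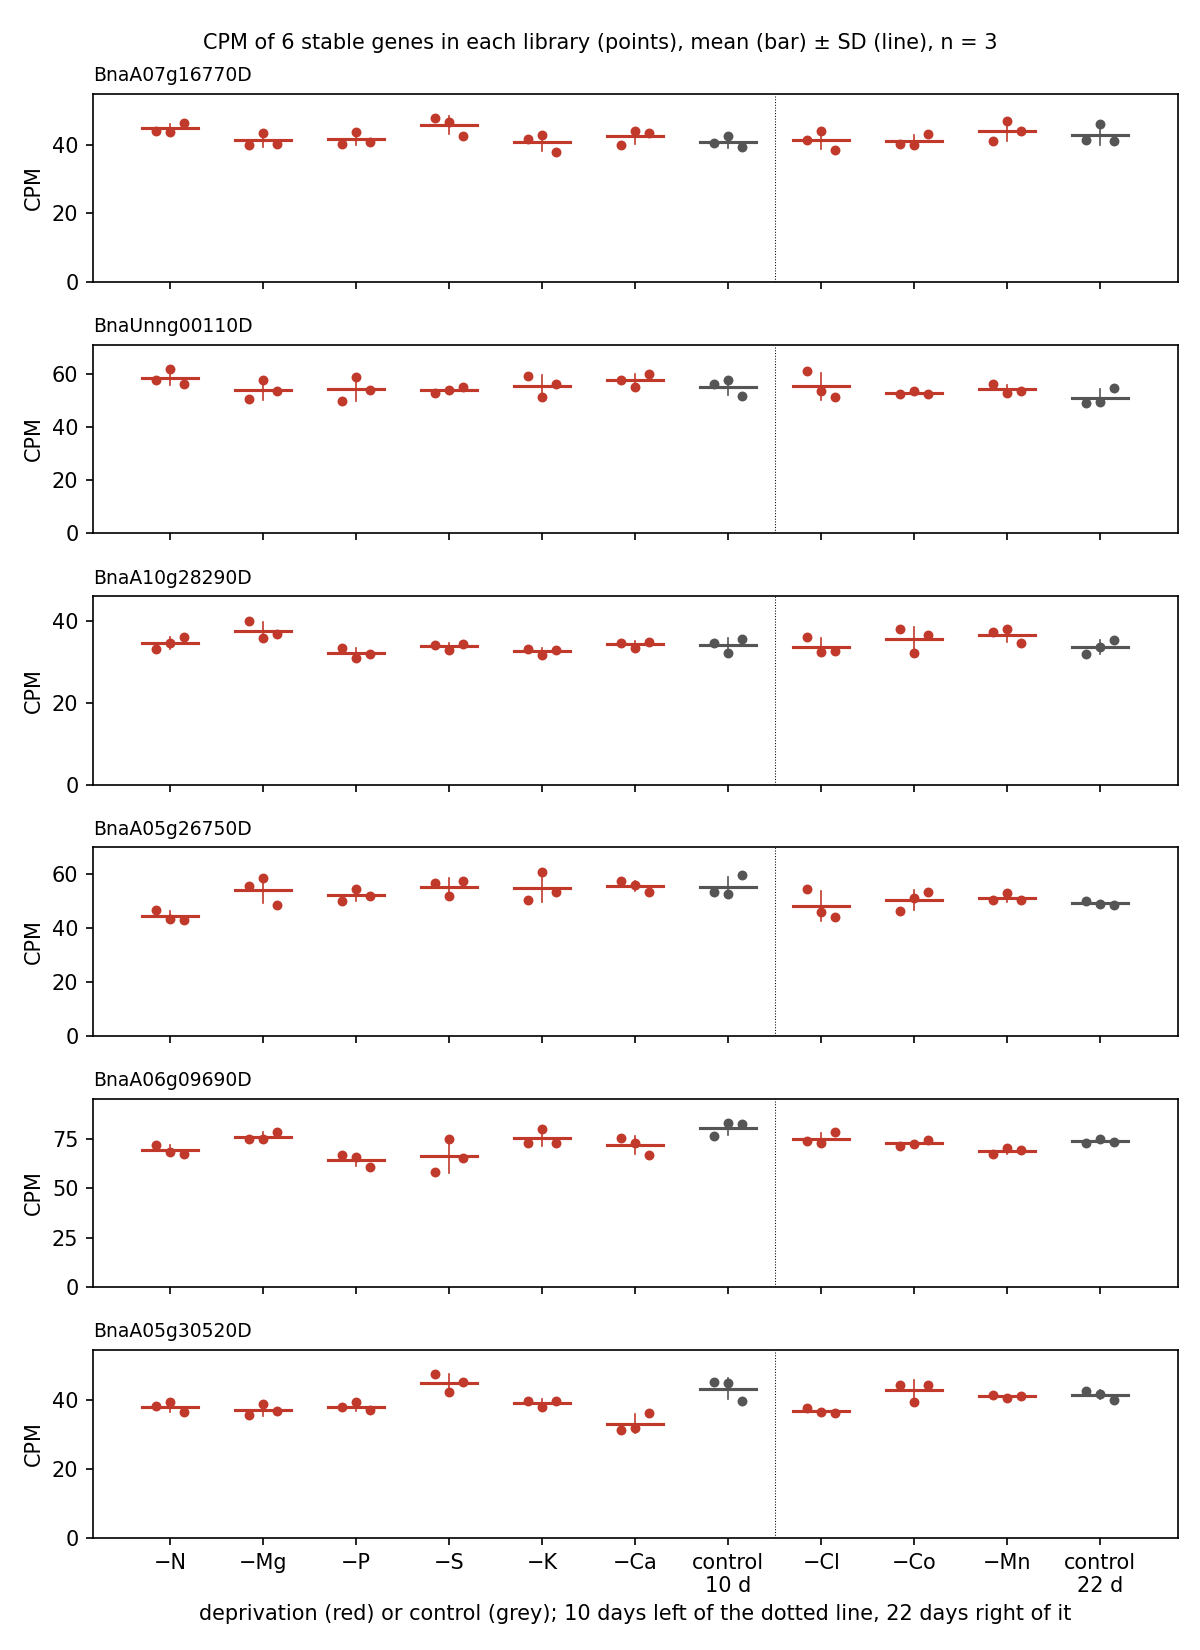
CPM in each library (points), with the mean (bar) and SD (vertical line) of the 3 replicates, for the 3 genes of lowest SD (upper panels) and 3 genes with calls (lower panels), deprivations in red and controls in grey. In the lower panels BnaA05g26750D is lower under N deprivation, BnaA06g09690D under N, P and S deprivation and BnaA05g30520D most clearly under Ca deprivation. All axes start at 0.

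In CPM, without TMM, the genes whose 3 deprived libraries stood wholly above or wholly below the 3 controls were also counted. Under N deprivation 23 of the 100 genes stood wholly above and 4 wholly below, beside 30.5% and 15.4% of the ranked genes (45.9% in either direction). Under S deprivation 20 stood above and 4 below, beside 27.3% and 11.0% (38.3%). Under P deprivation 6 stood above and 16 below, beside 26.9% and 26.1% (53.1%). Ca deprivation had 16 above and 8 below, beside 28.9% and 20.8% (49.7%). In either direction 24 of the 100 genes were separated under Mn deprivation (28.9% of the ranked genes), 14 under Co (31.2%), 12 under K (18.8%), 9 under Mg (17.0%) and 4 under Cl deprivation (8.60%), and 10 between the controls of 22 and 10 days (17.1%). Under N, S and Ca deprivation all calls made after TMM were lower (a single gene under S), while in CPM more genes of the 100 stood above the control than below it. These were different genes. Each gene called after TMM either overlapped with its control in CPM or stood wholly below it.

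To describe genes in libraries that had not chosen them, the same rule was applied to the libraries of one time only. The 100 genes chosen on the 21 libraries of 10 days, out of 6928 ranked there, had a median SD of 0.117 in those libraries. In the 12 libraries of 22 days, which took no part in the choice, their median SD was 0.158 (0.0680 to 0.393), against 0.229 over all genes ranked at 10 days. Of the 100, 85 were below that overall median, 32 were among the lowest 10%, and 9 were under 20 CPM in some library of 22 days. None was called by edgeR under Cl, Co or Mn deprivation, where the background was 0%. In edgeR 4, 2 and 3 had an unadjusted p of at most 0.05, beside 182, 537 and 702 of the 6928 genes. By DESeq2 3, 3 and 3 did, none of them called.

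The 100 genes chosen on the 12 libraries of 22 days, out of 8486 ranked there, had a median SD of 0.0828 in those libraries and of 0.197 in the 21 libraries of 10 days (0.0840 to 0.499), where the median over all genes ranked at 22 days was 0.355. All but 1 of the 100 lay below that overall median, and 41 lay among the lowest 10%. Against the 10-day control, edgeR called 11 of them under N deprivation, 32 under P deprivation, 25 under Ca deprivation and 5 under S deprivation. The background over the 8486 genes was 27.5%, 46.1%, 35.9% and 15.4% in that order. Under Mg and K deprivation none was called (background 4.03% and 1.43%). Before adjustment 11 and 7 reached an edgeR p of 0.05 or less, beside 1631 and 1290 of the 8486 genes. DESeq2 called 3 in each (background 7.25% and 3.96%). All calls were lower except for 1 gene under P deprivation and 2 under Ca deprivation. The genes called under S deprivation were BnaA10g12450D, BnaC05g10910D, BnaA06g09540D, BnaA10g23530D and BnaA06g09690D, with log2 fold changes between −0.53 and −0.42. With library size alone most calls were higher under N deprivation (13 calls, 9 of them higher) and Ca deprivation (19 calls, 13 of them higher). In the same fit 21 were called under P deprivation, 19 of them lower, and none under S deprivation. With that scaling 25.8% (N), 28.2% (Ca), 28.0% (P) and 12.1% (S) of all genes tested were called. When only the conditions compared were fitted, for which no background is given, 18 were called under P, 7 under Ca and 0 under S deprivation. Without a filter 20, 13 and 2 were called, beside 15029, 14166 and 4262 of 79797 genes tested. Leaving out 1 library moved these counts by more than 1.5 times: without replicate 2 of the 10-day control 18 were called under P, 12 under Ca and 0 under S deprivation, without replicate 1 or 3 of P deprivation 19 or 18 were called, without replicate 1 or 2 of Ca deprivation 10 or 14, and without replicate 2 of N deprivation 7. The S count was also 3 or 2 without replicate 1 or 3 of the control, and 0 or 3 without replicate 1 or 3 of S deprivation, and the Mg count was 1 without replicate 3 of the control or replicate 2 of Mg deprivation.

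The 10-day and 22-day lists shared 6 genes, and all 6 were among the 100 of the full ranking. These were BnaUnng00110D, BnaAnng02090D, BnaA07g16770D, BnaC04g15300D, BnaC09g09950D and BnaC05g09140D. BnaA07g16770D had an SD of 0.0859 at 10 days and of 0.0856 at 22 days. BnaUnng00110D was as even, with 0.0840 at 10 days and 0.0832 at 22 days. The other 4 genes had SDs of 0.116 to 0.121 at 10 days and of 0.0680 to 0.0885 at 22 days. BnaC09g09950D, one of them, had 84.4% of its variance between conditions, the highest share of the 100, and was called lower under P and Ca deprivation, in 6 and 3 of the 13 alternatives (edgeR adjusted p of 0.114 and 0.299 with library size alone). It had 57.8, 66.0 and 62.0 CPM in P-deprived roots and 66.1, 64.0 and 65.1 CPM in Ca-deprived roots, against 75.1, 70.5 and 69.5 CPM in control roots.

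Leaving out each condition in turn gave the same description for single conditions. The list of 100 was chosen without the 3 libraries of a condition, and the mean of those libraries was then compared with the mean of the other libraries. The median absolute difference of the list was 0.047 (log2) for the 10-day control, against 0.14 over all genes ranked, and 0.16 for P deprivation, against 0.34. For each of the 11 conditions the median of the list was below that of all ranked genes. A difference over 0.5 occurred for 4 genes in P deprivation and for 1 gene each in Ca deprivation (BnaC03g45780D, −0.51) and in the 22-day control (BnaA03g48720D, −0.58), whereas 3.30% to 32.4% of all ranked genes passed that value. The largest of the 4 in P deprivation was −0.65 in BnaC03g44430D. The genes compared share their libraries, so they are not independent of each other.

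**Figure D5:**
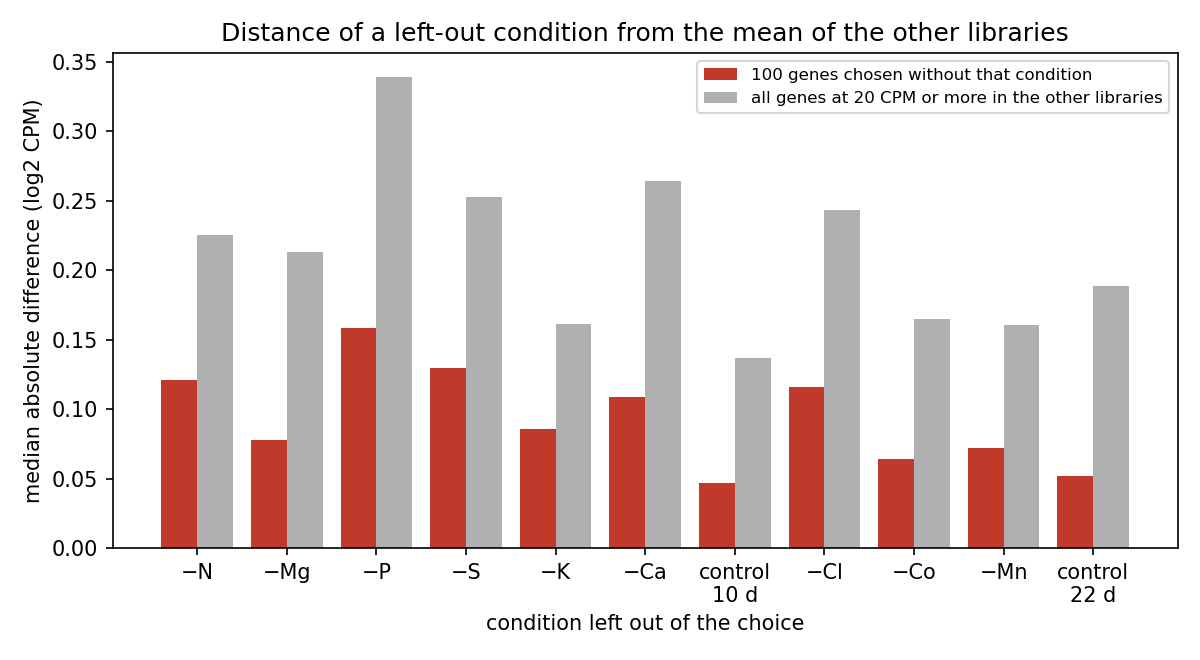
For each condition, the red bar is the median absolute difference, in log2 CPM, between that condition and the remaining libraries over the 100 genes chosen without it, and the grey bar the same over all genes ranked without it. The red bar is the lower in all 11 conditions, from 0.047 (10-day control) to 0.16 (P deprivation).

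Which genes count as most stable depended on the scaling. When the ranking was repeated on TMM-scaled CPM, 24 of the 100 genes were among the new 100, and 24 were kept by all of TMM, median-of-ratios and upper-quartile scaling. BnaA07g16770D, BnaC04g27170D and BnaC03g73830D were among these 24, and BnaUnng00110D and BnaA10g28290D were not. None of the other scalings kept 54 of the genes. With TMM scaling the SDs of the original 100 ran from 0.0843 to 0.211 (median 0.130), and those of the new 100 from 0.0843 to 0.115. The gene first under TMM was BnaA06g29290D, a member at rank 32 here, and BnaC07g42770D was the member that dropped farthest, to rank 1663. At 50 CPM or more in every library only 19 of the 100 remained ranked, and all 19 stayed in. No gene was kept under all 12 alternatives, and BnaA07g16770D was kept under 11, the exception being the minimum of 50 CPM.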

How the data were processed

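RNA was measured in roots by paired-end, strand-specific sequencing of polyA-selected RNA. The authors trimmed the reads, aligned them with STAR to Brassica napus reference sequences (named as the transcriptome in the methods), dropped read pairs that mapped to several places (6.68% to 7.67% of read pairs) and deposited whole-number counts per gene, unstranded and for each strand, with 1 table per library. Genes with near-identical copies in the other subgenome are therefore counted only from reads that tell the copies apart.

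The counts of the reverse column, which holds the coding strand, were used, and groups were taken from the sample labels. CPM were computed by total gene counts. Comparisons used edgeR 4.0.16 in R 4.3.3 (filterByExpr, TMM, quasi-likelihood test, 1 coefficient per condition, all libraries of the time fitted together, Benjamini-Hochberg adjustment). DESeq2 1.42.0, a likelihood ratio test, other scalings, no filter, a replicate block, other ranking rules and leaving out libraries were alternatives. Both the ranking and the test were checked on simulated data. The p-values rest on the spread between the 3 replicates within conditions, pooled over all conditions fitted together and drawn towards that of other genes. Except in fits of the conditions compared alone, they do not rest on the spread of those conditions only. The authors' lists of ion transporter and sulphur genes served only to pass genes over. Identifiers were matched to RefSeq gene tables, and 0 of 101040 matched.

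The members, the lists and the genes named (lowest SD, both ends of mean CPM, largest fold change in each comparison, highest opposite-strand share, genes beside the threshold, closest neighbours, genes stable at both times) were chosen with earlier results of these data known. Genes named beside small counts, in the plots or as second examples were chosen after their values were seen. Replicate numbers are shared between conditions in the labels. The correlation of deviations between samples of the same number ran from −0.261 to 0.453 over the 10 comparisons, and all 3 pairs exceeded 0.1 only for Co deprivation (0.267, 0.130 and 0.453), where no source says what the number stands for.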

Additional observations from a re-analysis of the deposited data

How the results depend on the processing

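The membership depended on the scaling, the CPM minimum, the measure of spread and the time. Of the 100 genes, 24 were kept with TMM-scaled CPM, 27 with median-of-ratios scaling and 46 with upper-quartile scaling, 19 with a minimum of 50 CPM, 40 with the median absolute deviation, 37 with the SD within conditions, 61 with the SD of condition means, 45 on the 10-day libraries alone and 20 on the 22-day libraries alone. Unstranded counts kept 99, a minimum of 10 CPM 81 and, as alternatives chosen after seeing the data, the SD beyond counting error 89 and leaving out single conditions 68 to 91. Leaving out single libraries or conditions kept 68 (without P deprivation) to 98.

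Calls among the 100 genes were 13 (N), 18 (P), 4 (S) and 16 (Ca) with DESeq2, beside 12145, 17021, 6788 and 15611 of 56667 genes tested. With library size alone they were 3, 2, 0 and 2, beside 14624, 15876, 6879 and 16006 of 56667. Without a filter they were 3, 3, 0 and 1, beside 10214, 15029, 4262 and 14166 of 79797. When only the conditions compared were fitted they were 1, 0, 0 and 1. No background is given for these last fits or for those without 1 library, here or above. The median-of-ratios factors gave 10 under N deprivation, beside 11305 of 56667 genes tested. The likelihood ratio test gave 4 under Ca deprivation, beside 15842 of 56667. The 3 calls that were higher than the control occurred with library size alone. Leaving out 1 library gave 1 to 6 calls (N), 2 to 12 (P), 0 to 1 (S) and 2 to 8 (Ca), and 0 in the other 6 comparisons. Of the 22-day list, DESeq2 called 9 in the S comparison and 3 in each of the Mg and K comparisons. Of all 56667 genes tested it called 6788 (S), 3101 (Mg) and 1438 (K). Library size alone called 13 of the list under N (9 higher), 21 under P, 0 under S and 19 under Ca deprivation (13 higher). Fits of the conditions compared alone gave 18 (P), 0 (S) and 7 (Ca), and no filter gave 20, 2 and 13. Leaving out 1 library gave 7 to 11 (N), 0 to 1 (Mg), 18 to 30 (P), 0 to 6 (S), 0 (K) and 10 to 19 (Ca), and 0 for the 10-day list at 22 days. The causes of these differences were not tested.

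With library size alone the median log2 fold change of the 100 genes became 0.086 (N), −0.031 (P), 0.078 (S), 0.020 (Ca), 0.046 (Co) and 0.051 (Mn). Leaving out 1 library, it ran from −0.13 to −0.095 (N), −0.17 to −0.11 (P), −0.083 to −0.050 (S), −0.16 to −0.099 (Ca), −0.012 to 0.024 (Mg), 0.0063 to 0.055 (K), −0.026 to 0.046 (Cl), −0.071 to −0.023 (Co), −0.037 to 0.0075 (Mn) and −0.010 to 0.037 (22-day over 10-day controls).

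With the replicate number as a block, 5 (N), 9 (P), 1 (S) and 6 (Ca) of the 100 genes were called. These stood beside 10781, 16066, 4258 and 14615 of 56667 genes tested. In each other comparison, Co deprivation included, 0 of the 100 were called, and the replicate block moved no count by more than 1.5 times. Every sample correlated best with its own number in none of the comparisons.

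At the median of 544 counts per library, the SD from counting alone had a median of 0.0629 over the 100 genes, and how far depth moved the ranking was measured only by the 89 genes kept on the SD beyond counting error. The smallest change that 3 replicates a condition could detect was not measured.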
